A study of Homo sapiens with 4 samples.

Results

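The Eph receptors are cell surface receptor tyrosine kinases that are read here through 10 genes, EPHA1, EPHA2, EPHA3, EPHA4, EPHA7, EPHB1, EPHB2, EPHB3, EPHB4 and EPHB6, taken by symbol from a table of 58365 genes. Each symbol had a single row. The 4 remaining EPH genes of the table, EPHA5, EPHA6, EPHA8 and EPHA10, were left outside the set and are described once at the end of the receptor results. The cells were H1 cells, a human embryonic stem cell line, cultured for 2 days in custom mTeSR1 medium with 40 ng/ml activin A and 50 ng/ml BMP4, growth factors that start mesoderm formation on the way to blood. The study's methods give those concentrations the other way round. The control group (DMSO, n = 2) and the treated group (IWP2, n = 2) shared this medium and differed by IWP2, whose dose is not given in the sources used here. IWP2 blocks Porcupine, the enzyme that attaches a lipid to Wnt proteins and without which they are not secreted. The comparison thus asks which transcripts differ at day 2 when Porcupine is inhibited. The labels do not say whether replicates were separate cultures, so p-values measure the spread between these libraries, which may be technical.

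Eph receptors bind ephrins, ligands that are themselves anchored in the membrane of a neighbouring cell, and both partners signal into their own cell. EPHA receptors bind mainly the lipid-anchored ephrin-A proteins and EPHB receptors mainly the transmembrane ephrin-B proteins. EPHA4 accepts both kinds. The system is best known for sorting cells into separate territories, as at somite borders, in axon guidance and at the border between arteries and veins. In the gut, EPHB2 and EPHB3 are known targets of Wnt and beta-catenin signalling that hold cells at their place along the crypt.

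The values, whose unit the table does not name, were read as FPKM, fragments scaled by transcript length and by library depth, so that levels of different genes can be set side by side. Summed FPKM ran from 616418 to 653850 per library. The spacing of the lowest values put the depth at about 17.7 to 22.1 M fragments per library, and the highest relative depth, in IWP2 replicate 1, was 1.10 times that of DMSO replicate 1. Replicates correlated across genes at Pearson r = 0.9752 (DMSO) and 0.9811 (IWP2), against 0.9382 to 0.9476 between groups. IWP2 against DMSO was tested with limma on log2(FPKM + 1) over the 15980 genes with a mean of at least 0.5 FPKM, and a gene was called at an adjusted p under 0.05. Fold changes on this scale understate those of low genes, so the ratio of mean FPKM is given too. An exact permutation test of 2 against 2 libraries cannot go below p = 0.333 and was not used.

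With IWP2, 4 of the 10 Eph receptor genes fell, 3 rose, 2 were not called and 1 was too low to be tested. EPHA4, EPHB2, EPHB3 and EPHA2 were the genes that fell, by 13.3-fold, 6.12-fold, 3.55-fold and 2.10-fold in mean FPKM. EPHB1, EPHB6 and EPHA1 rose to 7.50, 5.48 and 1.66 times their DMSO means. Over all genes tested 13.2% were called, 7.35% lower and 5.81% higher with IWP2. Of the calls 44.2% were thus higher, against 53.7% with median centring and 50.2% with quantile normalization, so the balance over all genes turned with the scaling while the receptor calls did not. The 9 receptors tested passed the level filter in both groups, so none of them entered the test only through the group in which it was high. Their median log2 fold change was 0.03, beside -0.01 over all genes, since changes in both directions cancel, while all genes had a median absolute log2 change of 0.22.

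**Figure D1:**
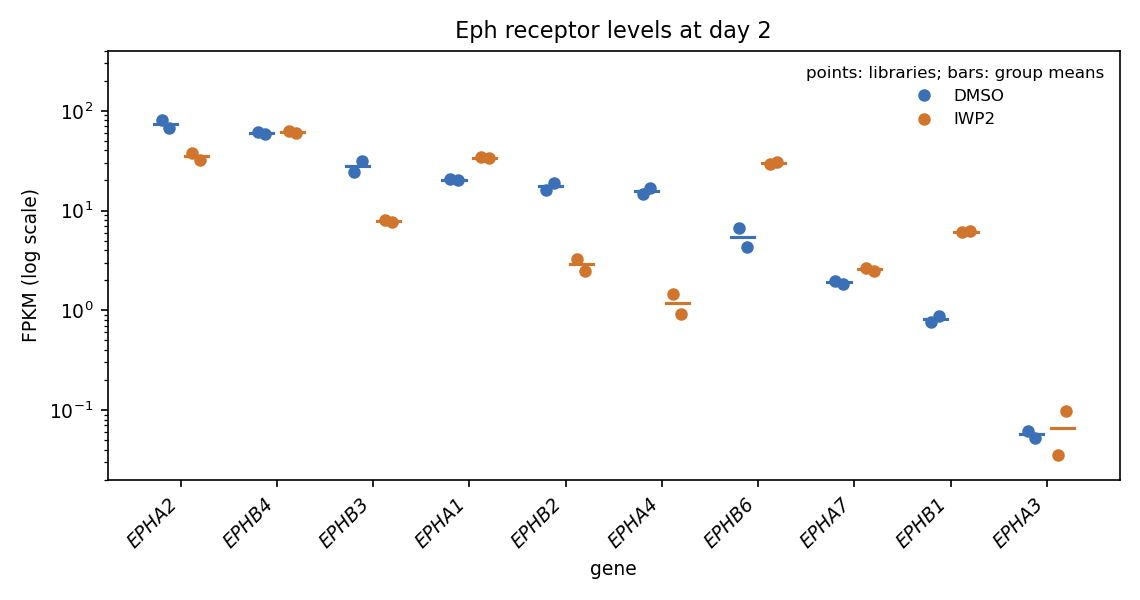
FPKM (log axis) of the 10 Eph receptor genes in DMSO (blue) and IWP2 (orange), ordered by the DMSO mean, with a point for each library and a bar for the mean of 2 libraries. EPHA2, EPHB3, EPHB2 and EPHA4 lie lower with IWP2 and EPHA1, EPHB6 and EPHB1 higher, while EPHB4 stays near 60.8 FPKM.

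Without IWP2 the family ordered as EPHA2, EPHB4, EPHB3, EPHA1, EPHB2, EPHA4, EPHB6, EPHA7, EPHB1 and EPHA3, from a mean of 74.0 to 0.0571 FPKM. Neighbours in this order did not overlap between their libraries except EPHB2 (16.2 to 19.1 FPKM) and EPHA4 (14.6 to 16.7 FPKM). With IWP2 the order was EPHB4, EPHA2, EPHA1, EPHB6, EPHB3, EPHB1, EPHB2, EPHA7, EPHA4 and EPHA3. There the libraries of EPHA2 and EPHA1 overlapped, as did those of EPHB2 and EPHA7. EPHA4 moved from place 6 to 9 and EPHB6 from place 7 to 4. Among all genes tested, EPHA4 went from the 65.8th to the 15.9th percentile of level and EPHB6 from the 41.7th to the 80.6th.

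The regions just upstream of the transcription start are shown for the 5 receptors with the largest changes, since 3 of them fell together and 2 rose together. They are the 250 bases before the RefSeq start nearest to the 5′ end of the gene's interval in the table (GRCh38.p14), 5′ to 3′ on the gene's own strand. All 10 receptors had an entry. Capitals mark every match to the motifs searched. The first 3 genes fell with IWP2 and lie at chr2:221574203-221574452 (EPHA4, minus strand), chr1:22710589-22710838 (EPHB2, plus strand) and chr3:184561535-184561784 (EPHB3, plus strand):
EPHA4: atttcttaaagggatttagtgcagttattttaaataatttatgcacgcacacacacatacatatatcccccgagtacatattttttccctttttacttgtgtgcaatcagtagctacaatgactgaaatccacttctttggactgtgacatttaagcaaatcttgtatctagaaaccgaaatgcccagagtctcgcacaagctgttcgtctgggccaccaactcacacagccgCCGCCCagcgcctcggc
EPHB2: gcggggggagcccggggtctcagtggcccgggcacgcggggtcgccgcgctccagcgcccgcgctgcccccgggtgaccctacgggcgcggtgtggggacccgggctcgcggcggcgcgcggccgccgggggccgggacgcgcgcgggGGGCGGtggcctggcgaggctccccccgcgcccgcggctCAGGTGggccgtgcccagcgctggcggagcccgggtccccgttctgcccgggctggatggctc
EPHB3: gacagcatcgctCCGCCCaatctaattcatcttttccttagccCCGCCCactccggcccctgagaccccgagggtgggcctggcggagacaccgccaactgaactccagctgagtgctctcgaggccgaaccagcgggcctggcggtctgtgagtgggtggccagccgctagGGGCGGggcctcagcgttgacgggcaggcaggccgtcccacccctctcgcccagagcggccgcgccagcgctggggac

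The other 2 rose with IWP2 and lie at chr3:134795010-134795259 (EPHB1, plus strand) and chr7:142862506-142862755 (EPHB6, plus strand). The RefSeq start lay 197459 bases inside the table's interval for EPHB1 and 7695 bases inside it for EPHB6, so other starts of these genes are not covered:
EPHB1: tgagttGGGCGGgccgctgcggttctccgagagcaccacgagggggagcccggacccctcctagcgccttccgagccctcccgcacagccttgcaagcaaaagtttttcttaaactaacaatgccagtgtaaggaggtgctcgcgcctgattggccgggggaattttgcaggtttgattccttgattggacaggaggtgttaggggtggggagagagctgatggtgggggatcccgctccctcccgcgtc
EPHB6: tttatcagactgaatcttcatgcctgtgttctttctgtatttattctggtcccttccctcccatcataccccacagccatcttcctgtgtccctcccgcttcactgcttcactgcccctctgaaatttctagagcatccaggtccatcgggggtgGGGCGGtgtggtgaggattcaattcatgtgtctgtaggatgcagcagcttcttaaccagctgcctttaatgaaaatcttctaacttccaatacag

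The motifs were read on both strands, overlaps allowed, and each share is that among 35116 RefSeq promoter windows of the same 250 bases. Neither TCF/LEF motif, CTTTGAT (2.26% of all promoters) or CTTTGTT (4.50%), matched in any of the 10 receptors, nor did the T-box motif TCACACC (2.76%) or the SMAD motif GTCTAGAC (0.182%). The GC box GGGCGG, bound by SP and KLF factors, was present in 9 of the 10, all but EPHA3, against 42.6% of all promoters. The E-box CAGGTG, a SNAI motif, was present in EPHB2, which fell, and EPHA1, which rose (17.5% of all promoters), and the GATA motif AGATAA in EPHA3 (9.17%). The windows also differed in base composition. EPHB2 had 41 CpG dinucleotides and 84.8% GC, more CpG than 98.3% of all promoters, against medians of 11 and 58.0%. EPHB3 had 21 CpG and 70.0% GC, but EPHA4, which also fell, had 9 CpG and 43.2% GC. Of the genes that rose, EPHB6 had 3 CpG and 48.0% GC and EPHB1 had 15 CpG and 60.8% GC. Composition thus did not follow the direction of change, and other starts of EPHB1 and EPHB6 are not covered. A match of letters is a description and not a binding site.

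EPHA4, a receptor for both ephrin classes, had the largest change of the set. It stood at 14.6 and 16.7 FPKM in the DMSO libraries and at 1.45 and 0.908 FPKM with IWP2. Both treated libraries lay below both controls, and they differed from each other by 1.59-fold. The log2 fold change was -2.94 ± 0.17 (SE, n = 2 per group; limma, adjusted p = 0.0014), and 99.4% of all genes had a change no larger in size. The gene spans 156.2 kb on chromosome 2 (GRCh38, 221418027 to 221574202, minus strand). An antisense transcript, AC079834.2, overlaps 1697 of its bases and reached at most 0.668 FPKM.

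EPHB2 and EPHB3, the receptors of the intestinal crypt, fell too. EPHB2 had 16.2 and 19.1 FPKM in DMSO and 3.27 and 2.50 FPKM with IWP2. EPHB3 had 24.6 and 31.2 FPKM in DMSO and 7.99 and 7.72 FPKM with IWP2. In both genes the groups were far apart relative to their libraries. The log2 fold change was -2.27 ± 0.16 for EPHB2 (SE, n = 2 per group; limma, adjusted p = 0.0024). For EPHB3 it was -1.70 ± 0.14 (SE, n = 2 per group; limma, adjusted p = 0.0037). Within a library EPHB3 exceeded EPHB2 1.51-fold and 1.63-fold in DMSO and 2.44-fold and 3.09-fold with IWP2. EPHB2 lies at chromosome 1, 22710839 to 22921500, and EPHB3 at chromosome 3, 184561784 to 184582409, both on the plus strand.

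EPHA2, a receptor known from epithelial cells and many carcinomas, was the most abundant member without IWP2. Its libraries held 80.9 and 67.2 FPKM in DMSO and 38.2 and 32.3 FPKM with IWP2. The groups did not overlap, and the gene remained among the 3 highest receptors after treatment. The log2 fold change was -1.05 ± 0.13 (SE, n = 2 per group; limma, adjusted p = 0.011). EPHA2 lies on chromosome 1, 16124337 to 16156087, on the minus strand.

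EPHB6, whose kinase domain is catalytically inactive and which signals through partner receptors, showed the highest log2 fold change of those that rose. It stood at 6.60 and 4.26 FPKM in DMSO and at 29.2 and 30.4 FPKM with IWP2. The DMSO libraries differed by more than those of most members, yet both lay well under the treated ones. The log2 fold change was 2.28 ± 0.19 (SE, n = 2 per group; limma, adjusted p = 0.0040). No other gene of the table overlaps EPHB6 (chromosome 7, 142855061 to 142871094, plus strand).

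EPHB1, a receptor known from axon guidance, started from a low level. It had 0.770 and 0.872 FPKM in DMSO and 6.09 and 6.22 FPKM with IWP2. By the gene's longest coding transcript these values correspond to about 72 fragments in each DMSO library and 551 to 630 with IWP2. The log2 fold change was 1.97 ± 0.14 (SE, n = 2 per group; limma, adjusted p = 0.0025), and the ratio of IWP2 to DMSO means, 7.50, was the highest of the family. The gene spans 662.7 kb of chromosome 3 (134597801 to 135260467, plus strand), and the 3 genes that overlap it were listed at 0 in every library.

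EPHA1, the first Eph receptor to be described, rose less. It had 20.6 and 20.2 FPKM in DMSO and 34.4 and 33.4 FPKM with IWP2. These were among the tightest replicates of the set, and the log2 fold change was 0.70 ± 0.08 (SE, n = 2 per group; limma, adjusted p = 0.0093). EPHA1 (chromosome 7, 143390289 to 143408892, minus strand) shares 823 bases with ZYX on the opposite strand, which was higher still, at 84.0 to 86.0 FPKM in DMSO and 123 to 133 FPKM with IWP2, and 1080 bases with EPHA1-AS1, at 0.0865 to 0.598 FPKM. The library kit does not mark strand, so fragments in shared bases cannot be told apart, and the part of ZYX in the EPHA1 values was not tested.

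EPHB4, the ephrin-B2 receptor of venous endothelium, was the second most abundant receptor in DMSO and the first with IWP2. It had 61.4 and 57.9 FPKM in DMSO and 62.2 and 59.4 FPKM with IWP2. The groups overlapped, and the log2 fold change was 0.03 with a 95% interval of -0.18 to 0.24 (n = 2 per group; limma, adjusted p = 0.86). It shares 702 bases with SLC12A9, which reached 23.1 FPKM.

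EPHA7, a receptor known from the developing nervous system, had 1.99 and 1.84 FPKM in DMSO and 2.65 and 2.50 FPKM with IWP2. The groups did not overlap but the difference was small. Its log2 fold change of 0.30 had a 95% interval of -0.08 to 0.67 (n = 2 per group; limma, adjusted p = 0.26), so the gene was not called.

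EPHA3, known from mesenchyme, stayed at trace level, at 0.0616 and 0.0526 FPKM in DMSO and 0.0357 and 0.0977 FPKM with IWP2. This corresponds to roughly 5 to 11 fragments per library, and no difference was detectable at this depth. Of the EPH genes outside the set, EPHA8 averaged 0.659 FPKM in DMSO and 1.01 FPKM with IWP2 and was not called (limma, adjusted p = 0.43). EPHA6 (0.479 and 0.231 FPKM), EPHA5 (0.0886 and 0.0243 FPKM) and EPHA10 (0.0270 and 0.0967 FPKM), given as the means of DMSO and IWP2, were below the filter.

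**Figure D2:**
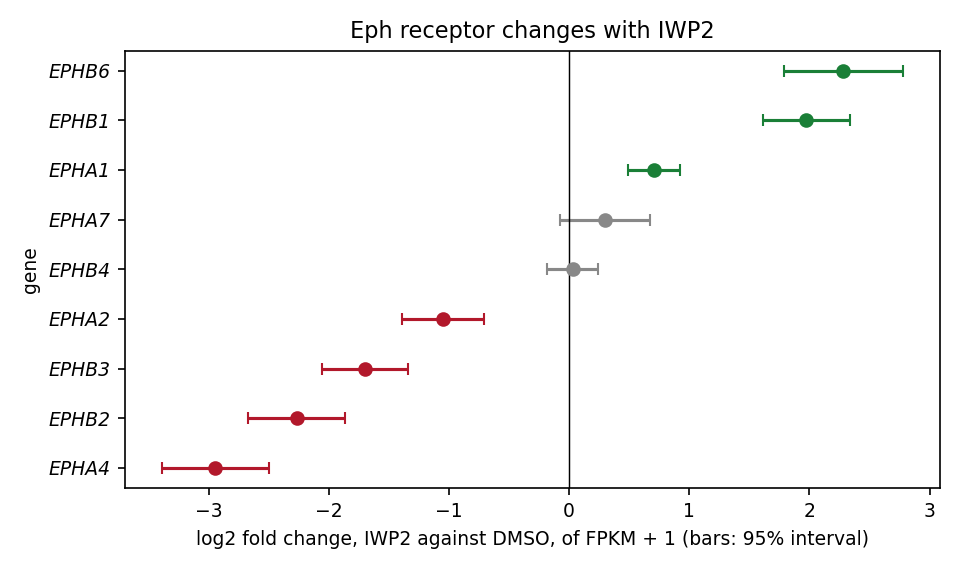
Log2 fold change of FPKM + 1 with IWP2 against DMSO for the 9 Eph receptors tested, with 95% intervals from limma (n = 2 per group), coloured red for lower, green for higher and grey for not called. EPHA4 is lowest at -2.94 and EPHB6 highest at 2.28, and the intervals of EPHB4 and EPHA7 hold 0.

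**Figure D3:**
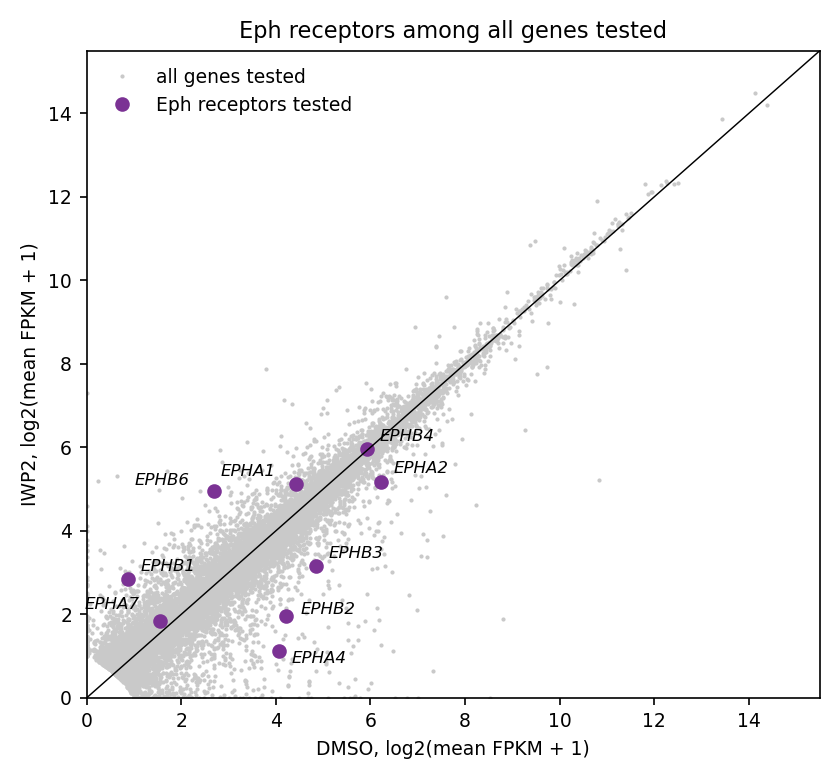
Mean FPKM as log2(mean + 1) in DMSO (x axis) and IWP2 (y axis) for all 15980 genes tested (grey) with the 9 Eph receptors tested in purple and the line of equal levels. EPHA4, EPHB2 and EPHB3 lie below that line and EPHB6 and EPHB1 above it, and EPHB4 lies on the line.

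The summed level of the 5 EPHB genes stayed in a narrow range although 4 of them changed. It was 109.5 and 113.3 FPKM in DMSO and 108.8 and 106.2 FPKM with IWP2. What differed was the make-up of that sum. EPHB2 and EPHB3 supplied 14.8% and 22.4% of it in DMSO replicate 1 and 16.8% and 27.5% in replicate 2, and with IWP2 3.0% and 7.34% in replicate 1 and 2.35% and 7.26% in replicate 2. EPHB6 went the other way, from 6.03% and 3.76% to 26.8% and 28.6%. EPHB4 supplied 51.1% to 57.2% in every library. EPHB4 was thus the main EPHB transcript in each library, and the remainder was mostly EPHB3 and EPHB2 in DMSO and mostly EPHB6 with IWP2.

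The summed level of the 5 EPHA genes was lower with IWP2, at 76.7 and 69.2 FPKM against 118.1 and 106.0 FPKM in DMSO. EPHA2 made up 68.4% and 63.4% of it in DMSO and 49.8% and 46.7% with IWP2. EPHA1 rose from 17.4% and 19.1% to 44.8% and 48.2%, and EPHA4 went from 12.4% and 15.8% to 1.89% and 1.31%. Sums are descriptions and were not tested, since the choice of genes fixes them.

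**Figure D4:**
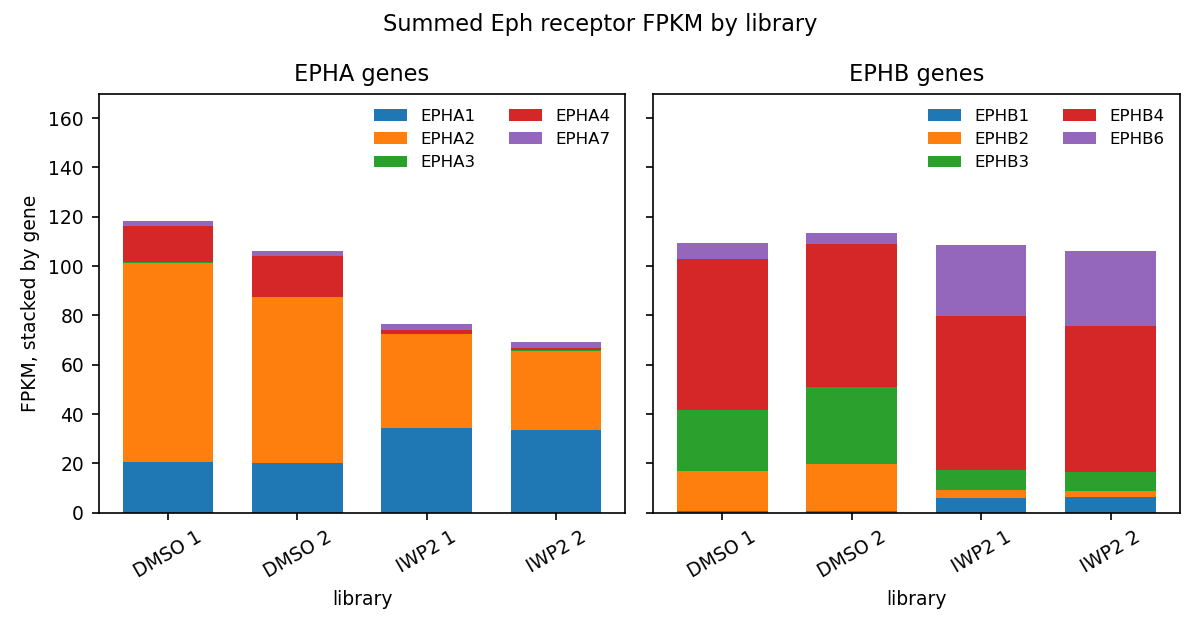
FPKM of the 5 EPHA genes (left) and the 5 EPHB genes (right) stacked by gene for each of the 4 libraries, on a common linear axis from 0. The EPHB stacks reach 106.2 to 113.3 FPKM in all libraries. With IWP2 their EPHB6 part is larger and their EPHB2 and EPHB3 parts are smaller, and the EPHA stacks are lower.

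Ratios between receptors within a library do not depend on how libraries were scaled. EPHB2 exceeded EPHB1 21.1-fold and 21.9-fold in DMSO, whereas EPHB1 exceeded EPHB2 1.86-fold and 2.49-fold with IWP2. EPHB3 exceeded EPHB6 3.72-fold and 7.32-fold in DMSO, and EPHB6 exceeded EPHB3 3.65-fold and 3.93-fold with IWP2. EPHA2 exceeded EPHA1 3.93-fold and 3.32-fold in DMSO and stood at 1.11 and 0.968 times EPHA1 with IWP2. The first 2 pairs thus turned over between the groups in both libraries, and the last became level.

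EPHB6 and EPHA1 lie on chromosome 7 with 519.2 kb between them, and both rose. Of the 27 genes of the table in that gap 9 were tested. TMEM139, FAM131B and ZYX were called higher, KEL was called lower and 5 were not called. These genes were looked up after the receptor values were seen. EPHB4, also on chromosome 7 at 100802565 to 100827521, was not called.

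The ligands showed changes in both directions as well. Of the 8 ephrin genes, all tested, 2 fell, 2 rose and 4 were not called. Over all genes tested 13.2% were called. EFNB1 had 12.5 and 12.3 FPKM in DMSO and 5.0 and 5.32 FPKM with IWP2 (log2 fold change -1.12 ± 0.11, SE, n = 2 per group; limma, adjusted p = 0.0055). EFNB2, the preferred ligand of EPHB4, had 9.05 and 7.87 FPKM in DMSO and 21.3 and 20.4 FPKM with IWP2 (log2 fold change 1.21 ± 0.11, SE, n = 2 per group; limma, adjusted p = 0.0047). EFNB2 was thus below EFNB1 in both controls and 4.26 and 3.84 times as high in the treated libraries. Among the lipid-anchored ligands EFNA2 fell from a mean of 14.1 to 4.99 FPKM (limma, adjusted p = 0.0045) and EFNA5 rose from 4.42 to 10.7 FPKM (limma, adjusted p = 0.015). The mean levels of EFNA1 (9.22 and 14.8 FPKM in DMSO and IWP2), EFNA3 (3.70 and 6.43 FPKM), EFNA4 (14.8 and 15.0 FPKM) and EFNB3 (7.54 and 6.91 FPKM) did not pass the test. EFNA1 and EFNA3 did not overlap between groups.

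**Figure D5:**
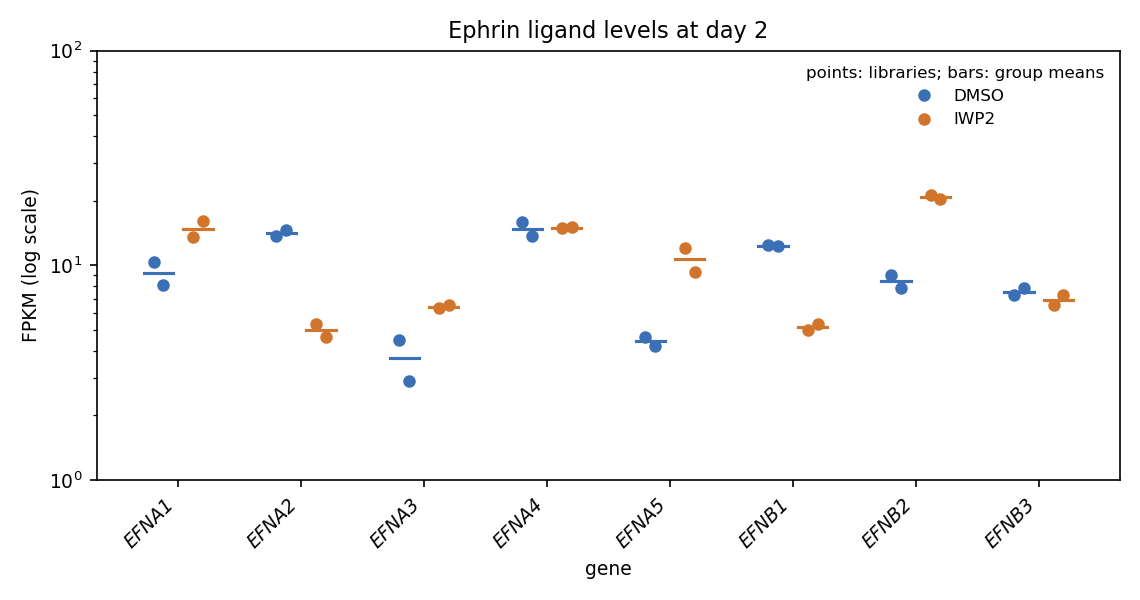
FPKM (log axis) of the 8 ephrin genes in DMSO (blue) and IWP2 (orange), with a point for each library and a bar for the mean of 2 libraries. EFNA2 and EFNB1 lie lower with IWP2, EFNA5 and EFNB2 higher, and EFNA4 and EFNB3 overlap.

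Some genes that act beside or below the receptors were called too. Their lists and the receptors were chosen with earlier results of these data known, so shares of calls are not compared between them. Of 18 kinases, phosphatases and adaptors 4 fell and none rose, beside 7.35% lower and 5.81% higher over all genes. The 3 with the largest changes were ANKS1B (4.43 to 0.457 FPKM; limma, adjusted p = 0.0048), PIK3R1, a regulatory subunit of PI3 kinase (7.99 to 2.13 FPKM; limma, adjusted p = 0.0069), and SRC, a kinase recruited by Eph receptors (61.7 to 25.4 FPKM; limma, adjusted p = 0.0037). Of 9 genes for receptor cleavage and ephrin-B signalling, GRIP1, a scaffold that binds ephrin-B tails (4.27 to 7.84 FPKM; limma, adjusted p = 0.021), and PSEN2, a gamma-secretase subunit (13.0 to 20.2 FPKM; limma, adjusted p = 0.046), rose. SDCBP, which also binds ephrin-B tails, fell (71.9 to 45.4 FPKM; limma, adjusted p = 0.019). Each pair of values gives the DMSO and the IWP2 mean.

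The state of the cells differed between the groups along with the receptors. All 11 primitive streak and mesoderm markers were lower with IWP2 (summed level 1210 and 1538 FPKM in DMSO, 156 and 179 FPKM with IWP2), among them MIXL1 (mean 297.5 to 23.6 FPKM), EOMES (145 to 12.7 FPKM) and T (20.0 to 9.91 FPKM). Of 10 Wnt response genes 8 were lower and none higher (summed level 205 and 214 FPKM, then 31.0 and 30.5 FPKM), with AXIN2 at a mean of 14.7 and 6.01 FPKM and SP5 at 50.1 and 0.371 FPKM. Of 10 pluripotency markers 6 were higher and 1, TDGF1 (mean 212 and 101 FPKM), was lower. Their summed level was 1719 and 1466 FPKM in DMSO and 3221 and 3159 FPKM with IWP2. POU5F1 alone held 751 and 571 FPKM of it in DMSO and 1854 and 1844 FPKM with IWP2. SOX2 averaged 0.183 FPKM in DMSO and 35.8 FPKM with IWP2, and POU5F1 661 and 1849 FPKM, while NANOG (16.3 and 30.6 FPKM) was not called (limma, adjusted p = 0.18). Of 6 endoderm markers tested 5 were lower, and SOX17 (mean 129 and 87.3 FPKM) was not called (limma, adjusted p = 0.17). The summed level of the 7 endoderm genes was 1918 and 2307 FPKM in DMSO and 126 and 137 FPKM with IWP2, most of it CER1 in DMSO, and without CER1 it was 306 and 259 FPKM, then 87.7 and 103 FPKM.

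Markers of other cell types moved less evenly. Of 5 endothelial and blood markers tested 3 were lower (summed level of 10 genes 67.4 and 69.9 FPKM, then 43.0 and 41.1 FPKM). KDR, a VEGF receptor that early mesoderm expresses too, made up most of this sum, at 53.2 and 60.4 FPKM in DMSO and 38.6 and 35.7 FPKM with IWP2, and the other 9 genes summed to 14.2 and 9.59 FPKM, then 4.36 and 5.44 FPKM. Among these, TEK (mean 3.34 and 1.63 FPKM) and RUNX1 (2.43 and 0.280 FPKM) were lower and CD34 (3.73 and 1.80 FPKM) and TIE1 (1.82 and 0.848 FPKM) were not called. The later endothelial and blood genes were near 0, with PECAM1 at 0.0120 to 0.447 FPKM, CDH5 at 0.0903 to 0.492 FPKM, PTPRC at 0 to 0.00906 FPKM and GATA1 at 0 in every library. Of 4 genes tested from the neural list OTX2 (mean 58.5 and 2.57 FPKM) was lower and NES (92.8 and 130.6 FPKM) higher. PAX6 (0.988 and 0.0558 FPKM; limma, adjusted p = 0.078) and ZIC2 (44.5 and 47.2 FPKM; limma, adjusted p = 0.62) were not called. Whether OTX2 and NES mark neural cells in these cultures was not tested. The summed level of the 6 neural genes was 203.6 and 190 FPKM, then 185 and 176 FPKM. Of 7 amnion and trophoblast markers tested 2 were lower and 2 higher (337 and 408 FPKM, then 235 and 259.7 FPKM). HAND1, among these, is also a mesoderm marker here. HAND1 alone set the direction of that last sum, which without it was higher with IWP2 (103 and 85.7 FPKM, then 134.5 and 141 FPKM). TFAP2A and KRT7 were the 2 called higher. The 2 called lower were HAND1 and CDX2 (mean 5.35 and 0.189 FPKM; limma, adjusted p = 0.0018). The markers other than HAND1 thus moved in both directions, and CDX2 weighs little in the sum. In bulk samples fewer cells of a type and less RNA per cell cannot be told apart, so a change in a receptor may be a change per cell or in the mix of cells, and the part of the cell mix in the receptor values was not tested.

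With 2 libraries per group the calls depended on each library. The directions of the called receptors could not turn when a library was left out, since their groups did not overlap. Without IWP2 replicate 2 none of the 9 receptors was called by limma (adjusted p of the 7 called receptors from 0.051 to 0.13, 7 at an unadjusted p under 0.05), and without IWP2 replicate 1 EPHA4 alone was. Without DMSO replicate 1, EPHA1 and EPHA2 lost their calls (limma, adjusted p = 0.059 and 0.076), and without DMSO replicate 2 EPHA1, EPHA2 and EPHB2 did (limma, adjusted p = 0.067, 0.064 and 0.051). Of the 45 ligands and partners tested 13 were called, beside 13.2% of all genes. Leaving out a library lowered this count, as it lowered the count over all genes.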

How the data were processed

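RNA from H1 cells at day 2 of differentiation was sequenced from 4 libraries (TruSeq RNA kit), 2 per group. The authors deposited a table of 58365 genes whose header names no unit, and its values were read as FPKM made by the authors, since totals differ between libraries, low values lie on steps set by transcript length, and RSEM, named in the submitters' processing notes, gives this unit. Those notes also name BWA, Bowtie and the build hg19, without versions of the tools. However, 95.3% of rows carried the exact gene intervals of GENCODE 29 on GRCh38, so GRCh38 is used here. Counting by strand is not given in the sources used here. Columns were matched to samples by sign of IWP2 and replicate number.

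Genes with a mean of at least 0.5 FPKM were fitted with limma 3.58.1 (R 4.3.3; empirical Bayes with a mean-variance trend) on log2(FPKM + 1), IWP2 against DMSO, two-sided, with Benjamini-Hochberg adjustment over 15980 genes. The fit was tested on simulated data. Depth came from the spacing of values under 0.1 FPKM and from genes with a single transcript of over 1500 bases. Fragment numbers per gene assume the longest coding transcript and are approximate. Alternatives were a pseudocount of 0.1, other filters, median or quantile scaling, no trend, a replicate block and leaving out each library. The named genes were all 10 receptors, the other EPH and the ephrin genes, up to 3 called genes per partner list and 8 marker genes. Other marker genes were named, and sums without the gene that leads them were added, after their values were seen. One partner list is not reported here, though its genes are in the counts of ligands and partners. The receptors and the gene lists were chosen with earlier results of these data known. RefSeq promoter windows were searched with Python 3.11.15.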

Additional observations from a re-analysis of the deposited data

How the results depend on the processing

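Of 99 receptor values recomputed over 11 alternatives, 76 kept their direction and their side of the threshold, and 23 did not. A pseudocount of 0.1, a minimum of 1 FPKM, median centring, quantile normalization, limma without a trend and the replicate block each left the same 7 receptors called. Over all genes 1003 were lower and 1162 higher with median centring, and 1058 and 1066 with quantile normalization, against 1175 and 929. Without a filter 28917 genes were tested and 381 called (263 lower, 118 higher), with 4 receptors called (2 lower) and 5 ligands and partners (4 lower, 1 higher). EPHA2, EPHB3 and EPHB6 then missed the threshold (limma, adjusted p = 0.080, 0.052 and 0.060). Without a trend 3 ligands and partners were higher instead of 5.

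Leaving out a library leaves 1 sample in its group, which is assumed to vary like the other group, and fewer samples lowered every count. Calls over all genes ran from 94 to 696 (lower 76 to 410, higher 18 to 286). Receptors called ran from 0 to 5 (lower 0 to 3, higher 0 to 2), and ligands and partners from 0 to 3 (lower 0 to 2, higher 0 to 1). EPHB4, which was never called, changed sign without DMSO replicate 2 (-0.01353) and without IWP2 replicate 1 (-0.0047), was 0.0701 without DMSO replicate 1, and reached 0.10 with median centring. EPHA4 ranged from -3.65 to -2.77, EPHB2 from -2.58 to -2.12, EPHB3 from -1.86 to -1.53 and EPHA2 from -1.18 to -0.92. EPHB6 ranged from 2.02 to 2.55, EPHB1 from 1.94 to 2.77 and EPHA1 from 0.68 to 0.78.

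The replicate numbers are shared by the groups, but with 2 pairs (correlation of deviations 0.142) they show no pairing by design. With the replicate block 1901 genes were called (1059 lower, 842 higher) in place of 2104, and 7 receptors and 12 ligands and partners.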
